A study of Mus musculus with 9 samples.

Results

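The genes described here are the mouse histone genes that carry the symbols Hist1h, Hist2h, Hist3h and Hist4h, chosen as every row of the deposited liver RNA table whose symbol starts that way. They were 66 of 22701 genes. By the family that their symbols name, they comprised 6 linker histone H1 genes, 17 H2A genes, 19 H2B genes, 11 H3 genes and 13 H4 genes. Hist1h2al and Hist3h2bb-ps among them are annotated as processed pseudogenes. By the number in their symbols, 54 of them are named for the Hist1 cluster on chromosome 13 and 8 for the Hist2 cluster on chromosome 3. Another 3 are named for the Hist3 cluster on chromosome 11, and 1, Hist4h4, lies on chromosome 6. Of the Hist1 genes, Hist1h2al is annotated apart from the others on chromosome 13, at 51202727 to 51203065. A mean of at least 10 normalised reads over the 9 libraries was reached by 57 members, which entered the tests, and 9 members stayed under it.

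RNA had been sequenced from whole livers of 9 mice aged 5 weeks, on a mixed C57BL/6, 129svPas background. The study asked how loss of the heterochromatin proteins HP1 affects the liver. The groups were WT (3 livers), HP1a_KO with the genotype HP1a-/- (2 livers), HP1ab_KO with HP1a-/-, HP1bliver-/- (1 liver), and HP1ag_KO with HP1a-/-, HP1gliver-/- (3 livers). All 6 mutant livers therefore lacked HP1a, and the deletions of HP1b and HP1g are marked as liver deletions; the labels used here name neither the Cre driver nor the cells it acts in. The labels give each library its own animal number and nothing further on litter or day, so p-values measure the spread between these samples.

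Replication-dependent histone genes supply the proteins that package newly made DNA, and their mRNAs accumulate in S phase. Their transcripts usually have no poly(A) tail. They end instead just after a short stem-loop that is bound by the protein SLBP, and the cut after it is guided by the U7 small nuclear ribonucleoprotein. In cells that have stopped dividing, some of the same genes also give longer, polyadenylated transcripts. The libraries here were made from total RNA depleted of ribosomal RNA and primed at random, so RNA without a poly(A) tail could be read.

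The stem-loop is shown because it defines the family at the RNA level, and because its presence in the annotated transcripts sorted the members below. It was searched in the GENCODE M21 transcripts of build GRCm38 as a stem of 6 bases starting with GG, a loop of 4 bases starting with TT, and the pairing stem, 16 bases in all. It was present in 42 of the 66 members. The 6 versions found are printed 5′ to 3′ on the transcript strand, with the loop in capitals and named by the number of members that hold them.
Held by 24 members of the H1, H2A, H2B and H3 families: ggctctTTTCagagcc
Held by 7 H4 members: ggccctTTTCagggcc
Held by 6 members of the H1, H2B and H3 families: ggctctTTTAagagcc
Held by 2 further H4 members, Hist1h4i and Hist2h4: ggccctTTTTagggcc
Held by the H4 genes Hist1h4b and Hist1h4j: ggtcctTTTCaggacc
Held by the H2A gene Hist2h2ac: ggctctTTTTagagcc
The H4 genes thus had their own stems, and no H4 stem was found in a member of another family. The same letters occurred in the transcripts of 4 of 21814 other protein-coding genes (0.0183%): H2bfm, Hist2h2aa2 under a second identifier, Hist2h3c1 and Trim17, of which Trim17 overlaps Hist3h2a on the same strand. In 21 members the annotated transcript ended less than 100 bases after the loop, in 21 it ran on for at least 100 bases, and in 24 the annotated transcript held no such loop. An annotated transcript that stops short of the loop is counted in the last class, so the class describes the annotation and not the RNA in the livers.

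The promoters differed between families as well. RefSeq promoters of build GRCm38.p6 were matched for 58 members (59 promoters, 2 of them for Hist1h2be), and the 250 bases before the start were searched on both strands for TATAAA (the TATA box core), CCAAT (the CCAAT box) and ATTTGCAT (the octamer known from H2B promoters). CCAAT was present in 6 of 6 H1, 15 of 15 H2A, 17 of 17 H2B and 8 of 9 H3 promoters but in 3 of 12 H4 promoters, against 33.8% of all 32851 promoters. The octamer was found in 7 of 17 H2B and 6 of 15 H2A promoters and in 0 of the others, against 1.60% of all promoters. These counts are not all separate sites, because neighbouring H2A and H2B genes on opposite strands can have overlapping promoter stretches. Hist1h2bg and Hist1h2ae hold the same octamer, and so do Hist1h2bk and Hist1h2ah. TATAAA was found in 4 of 6 H1, 6 of 15 H2A, 8 of 17 H2B, 4 of 9 H3 and 6 of 12 H4 promoters, against 12.4% of all. A match describes letters only. The 120 bases before the start are printed for 4 members that the results below turn on, with matches to the searched letters in capitals: Hist1h1b, Hist1h2bb and Hist1h4f varied most widely or rank among the most abundant of those that moved together, and Hist1h4c did not move with them.
Hist1h1b, chr13:21780626-21780745, minus strand: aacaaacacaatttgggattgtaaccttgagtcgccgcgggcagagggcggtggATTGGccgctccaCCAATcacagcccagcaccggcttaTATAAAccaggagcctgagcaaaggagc
Hist1h2bb, chr13:23746614-23746733, plus strand: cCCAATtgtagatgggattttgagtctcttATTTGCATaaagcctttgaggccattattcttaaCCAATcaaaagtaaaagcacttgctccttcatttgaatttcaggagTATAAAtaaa
Hist1h4f, chr13:23551669-23551788, minus strand: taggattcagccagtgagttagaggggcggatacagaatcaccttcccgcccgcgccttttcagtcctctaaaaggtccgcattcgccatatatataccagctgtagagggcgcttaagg
Hist1h4c, chr13:23698459-23698578, minus strand: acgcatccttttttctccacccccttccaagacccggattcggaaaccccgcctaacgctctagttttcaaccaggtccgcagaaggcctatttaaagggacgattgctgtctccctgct
The Hist1h1b stretch holds a TATA box core and CCAAT on each strand, the Hist1h2bb stretch holds the TATA box core, 2 CCAAT boxes and the octamer, and the H4 stretches of Hist1h4f and Hist1h4c hold none of the searched letters. In the full 250 bases, however, Hist1h4f holds TATAAA and no CCAAT, and Hist1h4c holds CCAAT and no TATAAA.

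Totals ran from 16266423 reads in HP1a_KO replicate 1 to 36161177 in HP1ab_KO, and histone genes took 0.0291 to 0.0541% of them. The livers were rich in hepatocyte RNA, with albumin (Alb) between 1726290 and 2550225 normalised reads. The gene for HP1a, Cbx5, was at 997 to 1542 in WT and at 501 to 813 in the 6 mutant livers. Cbx1, the gene for HP1b, was at 217 in HP1ab_KO and at 457 to 1082 elsewhere. Cbx3, the gene for HP1g, was at 326 to 380 in HP1ag_KO and at 536 to 641 elsewhere. Each targeted gene was thus below every WT library where the label says it should be, and which exons the counted reads of a mutated gene come from was not analysed here. In whole liver, fewer cells of a type and less RNA per cell cannot be told apart. The library of WT replicate 2 stood apart from the other WT libraries in most histone genes, and values are given with and without it below.

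The summed histone level ranged more widely among the 3 WT livers than between group means, and this rested on WT replicate 2. The summed level of the 66 members was 10850, 15569 and 8441 normalised reads in WT replicates 1 to 3, 10185 and 11462 in HP1a_KO, 12071 in HP1ab_KO, and 9118, 10499 and 11926 in HP1ag_KO. All mutant values lay inside the range that the 3 WT livers spanned. Set against WT replicates 1 and 3 alone, HP1a_KO replicate 2 (11462), HP1ab_KO (12071) and HP1ag_KO replicate 3 (11926) lay above both. The remaining mutant values lay between them. As means this was 11620 ± 3626 (SD, n = 3) in WT, 10823 ± 903 (SD, n = 2) in HP1a_KO and 10514 ± 1404 (SD, n = 3) in HP1ag_KO.

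Most of that sum came from a few genes. The 6 members with the highest means (Hist1h2bc, Hist1h1c, Hist1h1e, Hist1h4d, Hist1h4h and Hist1h4c) made up 59.2% of the mean summed level, and the first 12 made up 72.9%. The first 6 together were at 7951, 7526 and 5550 in WT, 6297 and 6294 in HP1a_KO, 6810 in HP1ab_KO, and 4737, 7501 and 6589 in HP1ag_KO. The other 60 members together were at 2899, 8043 and 2891 in WT, 3888 and 5169 in HP1a_KO, 5261 in HP1ab_KO, and 4381, 2998 and 5337 in HP1ag_KO. The first 6 therefore took 73.3% of the histone signal in WT replicate 1 but 48.3% in WT replicate 2. High total and high share of the less abundant genes went together in that library.

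Among the linker histones, which bind the DNA entering and leaving the nucleosome, Hist1h1c (H1.2) was at 1795, 1594 and 903 in WT, 1152 and 1257 in HP1a_KO, 1702 in HP1ab_KO, and 846, 1449 and 1544 in HP1ag_KO. Hist1h1e (H1.4) was at 1343, 1647 and 569 in WT, 908 and 977 in HP1a_KO, 1546 in HP1ab_KO, and 641, 1201 and 1412 in HP1ag_KO. Hist1h1d (H1.3) was at 426, 738 and 220.1 in WT, 319 and 431 in HP1a_KO, 602 in HP1ab_KO, and 269, 278 and 564 in HP1ag_KO. All 3 were lowest in WT replicate 3 or HP1ag_KO replicate 1, and the groups overlapped. Hist1h1b (H1.5, chromosome 13, 21779883 to 21780625) was at 77.4, 412 and 67.4 in WT, 112 and 185 in HP1a_KO, 188 in HP1ab_KO, and 151, 55.0 and 179.8 in HP1ag_KO. It spanned a 7.5-fold range over the 9 livers and was highest in WT replicate 2, as was Hist1h1a (H1.1) at 269 there against 61.7 to 211 elsewhere.

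Among the core histones of the H2A and H2B dimer, Hist1h2bc was the most abundant member in normalised reads. It was at 2248, 1539 and 1987 in WT, 1651 and 1776 in HP1a_KO, 1412 in HP1ab_KO, and 1144, 2195 and 1519 in HP1ag_KO. Unlike most members it was lower in WT replicate 2 than in either other WT liver. Hist1h2bb was at 87.2, 429 and 112 in WT, 112 and 249 in HP1a_KO, 207 in HP1ab_KO, and 169, 123 and 203 in HP1ag_KO. Hist1h2be was at 80.0, 300.0 and 122 in WT, 172 and 179 in HP1a_KO, 237 in HP1ab_KO, and 187, 141 and 226 in HP1ag_KO. The row named Hist2h2bb was at 108, 494 and 121 in WT, 204 and 323 in HP1a_KO, 271 in HP1ab_KO, and 193, 221 and 290.5 in HP1ag_KO. These last 3 were higher in WT replicate 2 than the mean of the other WT livers, by 4.30-fold (Hist1h2bb), 2.97-fold (Hist1h2be) and 4.33-fold (Hist2h2bb), and all mutant livers lay below that library. Hist1h2be shares exons with Hist1h1e on the same strand, and the identifier of the Hist2h2bb row belongs in GENCODE M21 to a long noncoding RNA that overlaps Hist2h2bb, so both rows are uncertain. The H2A genes were all less abundant, led by Hist2h2ac with a mean of 150.3.

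Among the core histones of the H3 and H4 tetramer, Hist1h4d was at 880, 1075 and 772 in WT, 927 and 876 in HP1a_KO, 884 in HP1ab_KO, and 775, 1033 and 796 in HP1ag_KO. Hist1h4h was at 963, 1035 and 709 in WT, 1040 and 801 in HP1a_KO, 915 in HP1ab_KO, and 755, 821 and 750.4 in HP1ag_KO. Both stayed within a 1.5-fold range (1.39-fold and 1.47-fold from lowest to highest library). Hist1h4c was at 723, 636 and 611 in WT, 618 and 606 in HP1a_KO, 351 in HP1ab_KO, and 577, 802 and 568 in HP1ag_KO. It lay between 568 and 802 in 8 livers and below them in the single HP1ab_KO liver. Hist1h4f was at 129, 339 and 92.7 in WT, 145 and 189 in HP1a_KO, 197 in HP1ab_KO, and 185, 97.6 and 252 in HP1ag_KO, highest in WT replicate 2. Hist4h4 was at 102, 360.0 and 218 in WT, 226 and 305 in HP1a_KO, 552 in HP1ab_KO, and 242, 103 and 261 in HP1ag_KO. It was highest in the HP1ab_KO liver, where Hist1h4c was lowest. Hist1h3e, the most abundant H3 member, was at 213, 323 and 179 in WT, 209 and 208 in HP1a_KO, 209 in HP1ab_KO, and 239, 179.5 and 219 in HP1ag_KO, with all mutants inside the WT range.

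**Figure D1:**
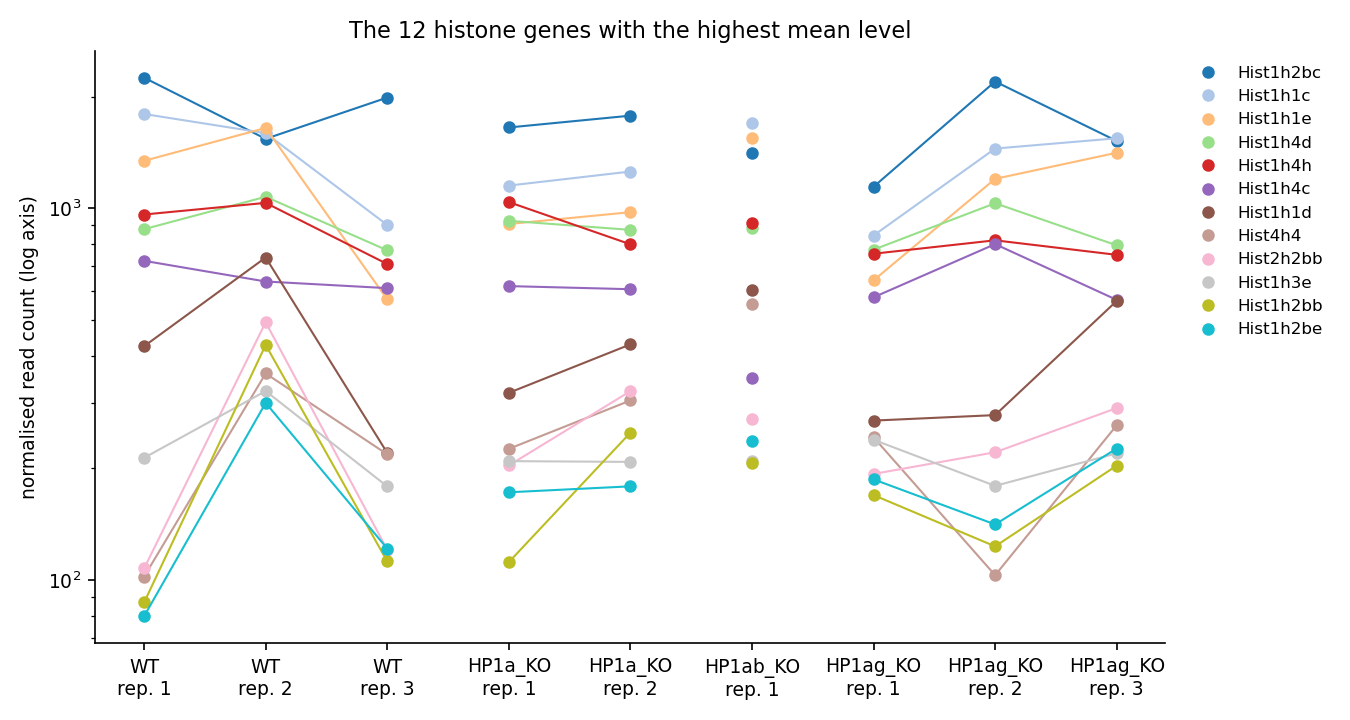
Normalised read counts (vertical log axis) of the 12 histone genes with the highest means in each of the 9 libraries (horizontal axis, by group and replicate); lines join replicates of a group, which have no order. Hist1h2be, Hist1h2bb and Hist2h2bb peak in WT replicate 2, at 300.0, 429 and 494, while Hist1h2bc, Hist1h4h and Hist1h4c are highest in another library.

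Per kilobase of annotated exon, where genes can be compared with each other, the order changed. Hist1h4h was first with a mean of 1842 normalised reads per kilobase, ahead of Hist1h2bc (1487), Hist1h1c (872), Hist1h4d (783), Hist1h4c (744) and Hist1h1e (590). The next, Hist1h4f, was at 462. The same 6 genes thus led on both scales. The per-length level depends on the annotated transcript: that of Hist1h1d runs for 7425 bases, which put it at 57.6 per kilobase.

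The member genes were high or low together across livers, also among livers of 1 genotype. WT replicate 2 held the highest of 9 values for 48 of the 57 members tested, whereas 8.26% of the 13788 other genes tested were highest there. The lowest value lay in HP1ag_KO replicate 2 for 17 members, in WT replicate 1 for 16 and in WT replicate 3 for 14. Against the mean of the other 2 WT livers, WT replicate 2 was higher by a median of 2.94-fold, by at least 2-fold in 43 members, and by as much as 5.70-fold (Hist1h1b). It was lower in 3: Hist1h2bc, Hist1h4c and Hist1h2al.

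In log2(value + 1), each gene centred on its own mean over the 9 livers, the median of the 57 members was -0.61, 0.95 and -0.50 in WT, -0.05 and 0.28 in HP1a_KO, 0.22 in HP1ab_KO, and 0.08, -0.48 and 0.38 in HP1ag_KO. The WT group held both the highest and the lowest of these medians. The SD of log2 values among the 3 WT livers had a median of 0.93 over the members, against 0.20 over the other genes tested and 0.26 over the 7904 of them with a mean under 500. Among the 3 HP1ag_KO livers it was 0.58 over the members and 0.20 over the other genes. Histone genes were thus spread more widely than most genes within a genotype, also when set beside genes of moderate level.

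**Figure D2:**
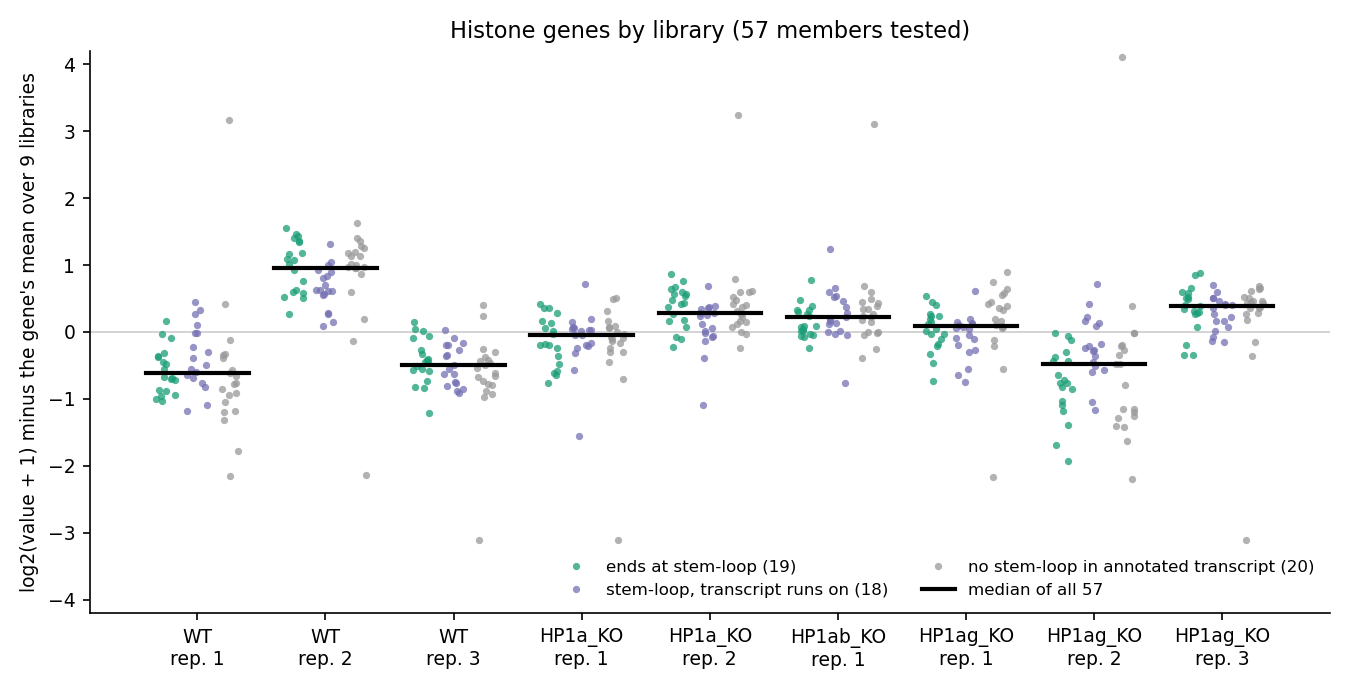
Each point is 1 of the 57 histone genes tested in 1 library (horizontal axis), as log2(value + 1) minus that gene's mean over 9 libraries (vertical axis), coloured by what its annotated transcript holds; black bars are medians of all 57. The median is highest in WT replicate 2 (0.95) and lowest in WT replicate 1 (-0.61), and the points beyond 3 above or below 0 belong to Hist1h2al.

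In each of the 5 families WT replicate 2 held the highest value for most members: 4 of 5 H1, 13 of 15 H2A, 12 of 14 H2B, 9 of 10 H3 and 10 of 13 H4 members tested. The centred median there was 0.89 for H1, 0.997 for H2A, 1.08 for H2B, 0.97 for H3 and 0.63 for H4. In WT replicate 1 the centred median was 0.10 for H1 and -0.37 (H4) to -0.92 (H2B) for the core families. The 5 H1 genes were not alike there: Hist1h1c was at its highest in that liver, while Hist1h1a (80.0) and Hist1h1b (77.4) were low as many core histones were. These family values are descriptions with 5 to 15 genes each, and no difference between families was tested.

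Members were less alike where the annotated transcript ran on past the stem-loop. Over the 9 livers, which all pairs share, the median Pearson r between 2 members was 0.67 over all 1596 pairs. It was 0.77 among the 19 tested members whose transcript ended at the loop, 0.74 among the 20 without a loop in the annotation, and 0.49 among the 18 whose transcript ran on. The centred medians in WT replicate 2 were 1.07, 1.003 and 0.63 in the same order, and the median SD among WT livers was 0.97, 1.13 and 0.78. The classes also differed in level, with a median of the members' means of 125 normalised reads where the transcript ran on against 61.4 where it ended at the loop, and this was not separated from the class.

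The most abundant members were those that followed the rest least. Each member was set against the median of the other members over the 9 livers. The r was over 0.9 for 24 members, led by Hist1h2bg (0.99), Hist1h1b (0.97) and Hist1h3f (0.97), and under 0.5 for 11. Those 11 included all 6 with the highest means: Hist1h2bc (-0.64), Hist1h4c (-0.38), Hist1h1c (0.18), Hist1h4h (0.24), Hist1h4d (0.26) and Hist1h1e (0.41). The other 5 of the 11 were among the 51 less abundant members: Hist1h2al (-0.31), Hist3h2a (0.13), Hist2h2be (0.26), Hist1h4m (0.30) and Hist1h4b (0.45). Hist1h2bc and Hist2h2be hold no stem-loop in their annotated transcript, Hist1h4c, Hist1h1c, Hist1h4d, Hist1h1e and Hist3h2a run on past it, and Hist1h4h, Hist1h4m and Hist1h4b end at it.

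The pattern of the histone genes was shared by genes of the cell cycle. Median centred log2 values of 32 DNA replication and S phase genes had r = 0.90 (Spearman rho 0.90) with the histone median over the 9 livers, and those of 26 G2 and M phase genes had r = 0.87 (rho 0.93). Without WT replicate 2 the values were 0.81 and 0.82, and without the 2 livers farthest from the list's own median they were 0.80 and 0.73. WT replicate 2 held the highest value for 20 of the 32 S phase and 19 of the 26 G2 and M phase genes. Mki67, a widely used marker of dividing cells, was at 354, 1377 and 591 in WT, 538 and 1035 in HP1a_KO, 734 in HP1ab_KO, and 673, 334 and 1175 in HP1ag_KO. Mcm5, a subunit of the replicative helicase, was at 121, 370.5 and 162 in WT, 130.3 and 275 in HP1a_KO, 222 in HP1ab_KO, and 209, 96.5 and 207 in HP1ag_KO. Both were lowest in HP1ag_KO replicate 2 and next lowest in WT replicate 1, which were low in histone genes too. The livers share depth and cell make-up across all these genes, and what part these have in the likeness was not tested.

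**Figure D3:**
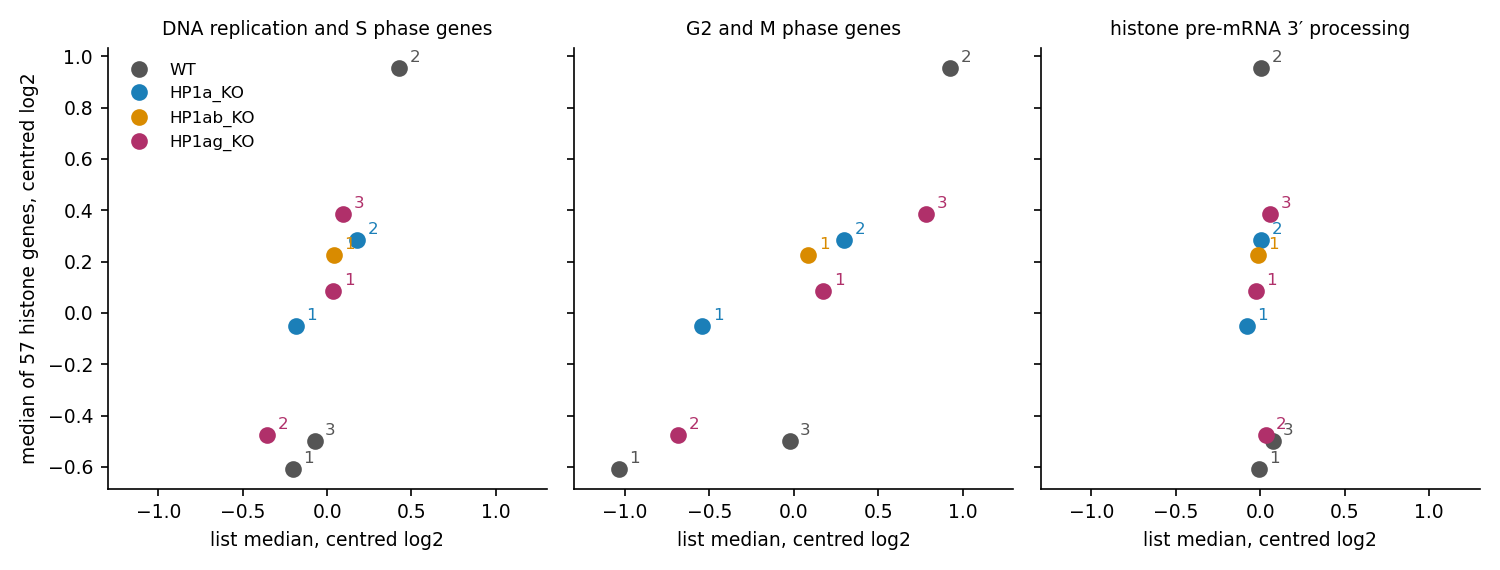
Median centred log2 value of the 57 histone genes (vertical axis) against that of 3 gene lists (horizontal axes), 1 point per library, coloured by group and numbered by replicate. The S phase list (r = 0.90) and the G2 and M phase list (r = 0.87) rise with the histone genes, and the list of histone pre-mRNA processing genes stays near 0 in all 9 libraries (r = -0.11).

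Genes that make or handle histone mRNA did not follow it. The 29 tested genes for 3′ processing of histone pre-mRNA had r = -0.11 with the histone median, and 3 of them were highest in WT replicate 2. Slbp, which binds the stem-loop, was at 451, 565 and 595 in WT, 488 and 507 in HP1a_KO, 534 in HP1ab_KO, and 575, 474 and 545 in HP1ag_KO. Its value in WT replicate 2 was below that in WT replicate 3. Npat, the coactivator of histone gene transcription, was at 429 to 471 in WT and 374 to 464 in the mutants. Of 24 histone chaperones, 8 were highest in WT replicate 2 and the list had r = 0.44. Chaf1b, a subunit of the chaperone CAF-1 that works at the replication fork, did move with the histone genes: it was at 32.9, 110 and 50.6 in WT, 58.7 and 83.4 in HP1a_KO, 80.7 in HP1ab_KO, and 80.2, 38.1 and 83.3 in HP1ag_KO.

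The replication-independent histone variants are made outside S phase as well, mostly from polyadenylated mRNAs, although H2afx also gives a transcript that ends at a stem-loop. They lay in between (r = 0.72 over 9 livers, 0.41 without WT replicate 2), with 5 of 10 tested highest in WT replicate 2. H2afx was at 138, 323 and 163 in WT, 220.2 and 294 in HP1a_KO, 239 in HP1ab_KO, and 302, 146 and 222 in HP1ag_KO. H2afz was at 901, 1408 and 987 in WT, 1106 and 1260 in HP1a_KO, 1221 in HP1ab_KO, and 987, 877 and 1340 in HP1ag_KO. The genes for H3.3 showed no such peak: H3f3a ran from 3457 to 4078 over all livers, and H3f3b from 3365 to 4336 with 3513 in WT replicate 2. In normalised reads that are not set per length, the sum of the variants was 13310 to 15626 in every liver.

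The 19 tested noncoding RNAs that lack a poly(A) tail, such as Rmrp, Rpph1 and Rn7sk, had r = -0.22 with the histone median over the 9 livers and 0.13 without WT replicate 2. Of them 1 was highest in WT replicate 2. Between genotypes their median log2 difference was 0.30 for HP1a_KO minus WT (16 higher, 3 lower). For HP1ab_KO minus WT it was 0.33 (16 higher, 3 lower), and for HP1ag_KO minus WT 0.03 (10 higher, 9 lower). HP1ag_KO minus HP1a_KO gave -0.32 (5 higher, 14 lower). In HP1a_KO against WT, 7 of the 19 had an unadjusted limma p under 0.05, against 10.1% of all genes. The histone medians for the same comparisons are given below. What part the recovery of such RNA has in the histone values was not tested. Rpph1, the RNA of RNase P, was at 123816, 93642 and 96441 in WT and 68459 to 145503 in the mutants. Few markers of liver cell types were highest in WT replicate 2, where 8.26% of the genes other than histone genes were. That liver held the highest value for 0 of 9 hepatocyte, 0 of 11 erythroid, 0 of 12 Kupffer cell and macrophage, 0 of 4 neutrophil, 0 of 7 B cell, 0 of 5 T and NK cell and 0 of 8 endothelial markers tested. It held the highest value for 1 of 9 stellate and 1 of 6 cholangiocyte markers. Over the other 8 livers, the marker medians had r = 0.68 (Kupffer cell and macrophage), 0.65 (neutrophil), 0.56 (stellate) and 0.54 (erythroid) with the histone median, against 0.29, 0.32, 0.35 and 0.32 over all 9, and their part in the histone values was not tested.

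Against that spread, no difference between genotypes passed the test in any histone gene. The fit used limma on log2(value + 1) over all 13845 genes with a mean of at least 10, and a gene was called at an adjusted p under 0.05. It did not call Cbx5 in HP1a_KO against WT (limma adjusted p = 0.397) or Cbx3 in HP1ag_KO against WT (limma adjusted p = 0.198). DESeq2 called both of these targeted genes. Limma likewise called 0 of 57 members in each of 5 comparisons, in which 0.0% of all genes were called. That 0 therefore does not set the histone genes apart from other genes, since limma called nothing. At an unadjusted p under 0.05 it found 0 members in HP1ag_KO against WT (7.58% of all genes), 0 in HP1a_KO against WT (10.1%), 1 in HP1ab_KO against WT (3.7%), 1 in HP1ag_KO against HP1a_KO (16.2%) and 1 in all HP1a-null livers against WT (6.64%). The quasi-likelihood test of edgeR on the recovered reads also called 0 members and 0 genes. DESeq2 called 0 members in all 5, while it called 99 genes (0.715%), 87 (0.628%), 11 (0.0795%), 457 (3.3%) and 44 (0.318%) in the same order.

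When all libraries were used, the median of the members lay between -0.21 and 0.24, and only for HP1ag_KO minus WT was it near 0. For HP1ag_KO minus WT the median log2 difference of the 57 members was 0.00, with 29 members higher and 28 lower, against a median of -0.01 over all genes tested. For HP1a_KO minus WT it was 0.13 (43 higher, 14 lower), and for HP1ab_KO minus WT it was 0.24 (43 higher, 14 lower, with 1 mutant liver that is assumed to vary like the other groups). All HP1a-null livers minus WT gave 0.14 (39 higher, 18 lower), and HP1ag_KO minus HP1a_KO gave -0.21 (16 higher, 41 lower). The comparisons with WT share the same 3 WT livers, and their medians over all genes lay between -0.01 and 0.00. With DESeq2 on the reads, which averages counts rather than log values, the medians were -0.11, 0.01, 0.02, -0.05 and -0.12, so no direction can be given for the group. Markers of some other cell types were higher in the HP1a_KO livers. The summed neutrophil markers, of which 4 of 13 passed the filter, were at 116 to 323 in WT, 2029 to 15698 in HP1a_KO, 2611 in HP1ab_KO and 139 to 2117 in HP1ag_KO. Most of the high sums was Lcn2, which hepatocytes make too in the acute phase, and the other 12 summed to 56.2 to 71.4 in WT, 344 to 530.2 in HP1a_KO, 190.2 in HP1ab_KO and 39.3 to 237 in HP1ag_KO. The 12 Kupffer cell and macrophage markers summed to 15408 to 18363 in WT, 22419 to 26967 in HP1a_KO, 25912 in HP1ab_KO and 16963 to 24035 in HP1ag_KO. For both lists the HP1ag_KO and WT ranges overlapped. The B and plasma cell markers summed to 174 to 436 in WT, 261 to 292 in HP1a_KO, 259 in HP1ab_KO and 303 to 645 in HP1ag_KO. The T and NK cell markers summed to 144 to 163 in WT, 166 to 172 in HP1a_KO, 162 in HP1ab_KO and 109.9 to 189 in HP1ag_KO. The stellate cell markers summed to 12898 to 18151 in WT, 19945 to 21549 in HP1a_KO, 19663 in HP1ab_KO and 16146 to 17754 in HP1ag_KO. The erythroid markers summed to 8416 to 19464 in WT, 12775 to 14624 in HP1a_KO, 21213 in HP1ab_KO and 6387 to 10478 in HP1ag_KO. Of 11 erythroid markers tested, 9 were higher in HP1a_KO than in WT (median log2 difference 0.79). For the hepatocyte, endothelial and cholangiocyte lists the HP1a_KO and WT ranges overlapped. The sums were not tested. Among single markers, DESeq2 called the neutrophil genes S100a8 (log2 difference 2.34, SE 0.55, DESeq2 adjusted p = 0.0092) and Prtn3 (3.39, SE 0.81, DESeq2 adjusted p = 0.011) higher in HP1a_KO than in WT. It also called the stellate cell genes Col1a1 (1.47, SE 0.31, DESeq2 adjusted p = 0.0026) and Col1a2 (0.88, SE 0.22, DESeq2 adjusted p = 0.020) higher there. The Kupffer cell gene Cd5l (0.79, SE 0.22, DESeq2 adjusted p = 0.046) and the hepatocyte gene Hnf4a (0.40, SE 0.11, DESeq2 adjusted p = 0.037) were called higher too. Limma called none of these. The part of these cells in the histone values was not tested.

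These medians turned on WT replicate 2. Without it they became 0.51 for HP1ag_KO, 0.69 for HP1a_KO, 0.81 for HP1ab_KO and 0.64 for all HP1a-null livers minus WT, with 50, 51, 52 and 52 of 57 members higher. Without WT replicate 1 they were -0.21, -0.09, -0.01 and -0.14, and without WT replicate 3 they were -0.26, -0.12, 0.07 and -0.12. Leaving out HP1ag_KO replicate 2, the mutant liver with the lowest histone median, gave 0.33 for HP1ag_KO minus WT and 0.12 for HP1ag_KO minus HP1a_KO. Leaving out HP1a_KO replicate 1 gave 0.38 for HP1a_KO minus WT, and leaving out HP1ag_KO replicate 3 gave -0.39 for HP1ag_KO minus HP1a_KO. Without WT replicate 2, limma still called 0 members. An unadjusted p under 0.05 was then reached by 5 members in HP1ag_KO (7.22% of all genes), 8 in HP1a_KO (7.98%), 6 in HP1ab_KO (4.1%) and 13 in all HP1a-null livers (6.47%).

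**Figure D4:**
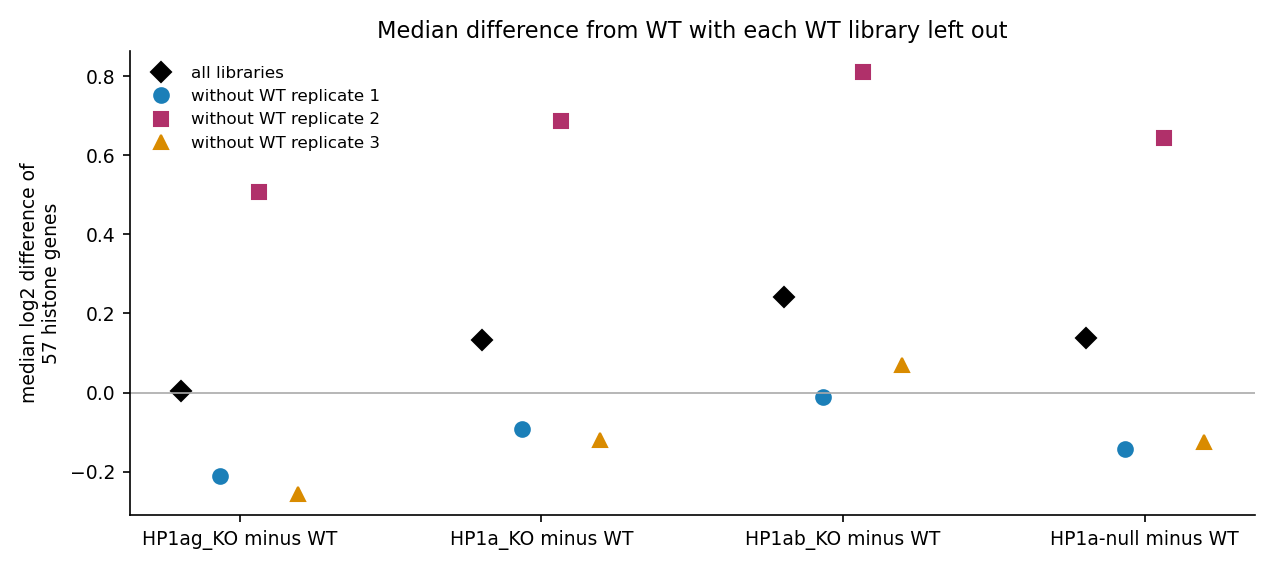
Median log2 difference from WT of the 57 histone genes (vertical axis) in 4 comparisons (horizontal axis), with all libraries and with each WT library left out in turn. Leaving out WT replicate 2 raises every median, to between 0.51 and 0.81, and leaving out WT replicate 1 or 3 lowers it.

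Single members with the smallest unadjusted p are given here with their values, although none was called. Hist1h4c (H4, chromosome 13, 23697635 to 23698454) was at 351 in the HP1ab_KO liver and at 611 to 723 in WT, a log2 difference of -0.90 (SE 0.21, unadjusted p = 0.0026, limma adjusted p = 0.999). It stayed between -0.95 and -0.83 when any 1 library other than that liver was left out. The other mutant groups were not lower to that extent, with -0.10 (SE 0.17) in HP1a_KO and -0.03 (SE 0.15) in HP1ag_KO. Over all HP1a-null livers the difference was -0.34 (SE 0.13, unadjusted p = 0.033), and it was carried by the HP1ab_KO liver, since it was -0.06 without it. Hist4h4 was higher in the HP1ab_KO liver than in any other, with a difference from WT of 1.46 (SE 0.70, unadjusted p = 0.069).

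In HP1ag_KO the H4 gene Hist1h4m was at 34.6, 57.2 and 45.4, against 54.3, 87.6 and 64.6 in WT and 58.7 and 78.3 in HP1a_KO. The difference from WT was -0.58 (SE 0.27, unadjusted p = 0.062) and that from HP1a_KO was -0.59 (SE 0.30), and 1 of the 3 HP1ag_KO livers lay inside the WT range. Of the sequence of its transcript, 89.8% in stretches of 50 bases also occurs in other genes, mostly in Hist1h4n, so its reads may be split between copies. Hist1h4b was at 91.1, 96.5 and 83.3 in HP1ag_KO and at 103 to 149 in WT, without overlap. The difference was -0.39 (SE 0.22), and it was -0.22 without WT replicate 2. In the Hist1h4b transcript 75.9% of such stretches also occur in other genes, mostly in Hist1h4a, so its reads may be split too. Hist3h2a, an H2A gene on chromosome 11 that overlaps Trim17 on the same strand, was at 31.0, 63.9 and 58.7 in HP1ag_KO, 25.7 and 29.2 in HP1a_KO and 31.1 to 42.9 in WT. It was higher in HP1ag_KO than in HP1a_KO by 0.81 (SE 0.34, unadjusted p = 0.046, limma adjusted p = 0.298).

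Counted by libraries that do not overlap between groups, the members stayed under the share of all genes. In HP1ag_KO against WT 0 members lay higher (6.46% of all genes) and 1, Hist1h4b, lower (7.05%). In HP1a_KO against WT 0 lay higher (14.7%) and 1, Hist3h2a, lower (15.1%). The single HP1ab_KO liver lay above all WT livers in 2 members, Hist3h2a and Hist4h4 (22.6%), and below them in 3, Hist1h2bc, Hist1h4b and Hist1h4c (24.8%). In HP1ag_KO against HP1a_KO, Hist2h2be and Hist3h2a lay higher (17.5%) and Hist1h2ae, Hist1h4m and Hist2h4 lower (19.2%). Over all HP1a-null livers 0 members lay above (1.4%) or below (1.74%) every WT liver.

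Since limma called 0.0% of all genes in every comparison, it called none in the lists for S phase, G2 and M phase, histone variants, 3′ processing and chaperones. DESeq2 called 1 gene of these lists in the 5 comparisons: Hira, which encodes a chaperone of H3.3, was at 242, 245 and 237 in HP1ag_KO and at 402 and 384 in HP1a_KO, a log2 difference of -0.69 (SE 0.22, DESeq2 adjusted p = 0.046, against 3.3% of all genes called). The WT livers were at 386, 269 and 262, all above HP1ag_KO. In HP1ag_KO against WT, an unadjusted limma p under 0.05 was reached by 2 of 24 chaperones, 2 of 32 S phase genes, and 0 of 10 variants, 0 of 29 processing genes and 0 of 26 G2 and M phase genes, against 7.58% of all genes. Within them the smallest unadjusted p among comparisons with WT belonged to Zfp473, the U7-associated factor, which was at 1.6 in the HP1ab_KO liver and at 8.0 to 20.2 elsewhere, close to the filter on low values. Nap1l1, an H2A and H2B chaperone, was at 738, 859 and 1058 in HP1ag_KO and at 1062 to 1338 in WT, a difference of -0.47 (SE 0.15, unadjusted p = 0.014). Ubn2, a subunit of the HIRA chaperone complex, was at 1535, 1427 and 1346 in HP1ag_KO and at 1141 to 1223 in WT, a difference of 0.29 (SE 0.09, unadjusted p = 0.012). Mcm10, which acts in the start of DNA replication, was at 804, 2122 and 2159 in HP1ag_KO and at 5112, 2450 and 4931 in WT, a difference of -1.36 (SE 0.45, unadjusted p = 0.016). Unlike most genes of the S phase list, Mcm10 was lower in WT replicate 2 than in the other WT livers. For these 3 chaperone and S phase genes the HP1ag_KO and WT livers did not overlap. None of the 4 genes passed adjustment by limma.

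Hist1h2al stood out among the members for being on or off. It is annotated as a processed pseudogene on chromosome 13, 51202727 to 51203065, and was at 76.5, 0.95 and 0 in WT, 0 and 80.9 in HP1a_KO, 73.5 in HP1ab_KO, and 0.91, 148 and 0 in HP1ag_KO. In recovered reads this was 86, 94, 92 and 132 in the 4 livers that had it and at most 1 in the other 5. It was the only gene of the table with at least 50 normalised reads in those 4 livers and at most 3 reads in the other 5. The livers with and without it cut across WT, HP1a_KO and HP1ag_KO. Where 0 reads were counted, the limit that this allows is 3 reads, for counting error alone.

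**Figure D5:**
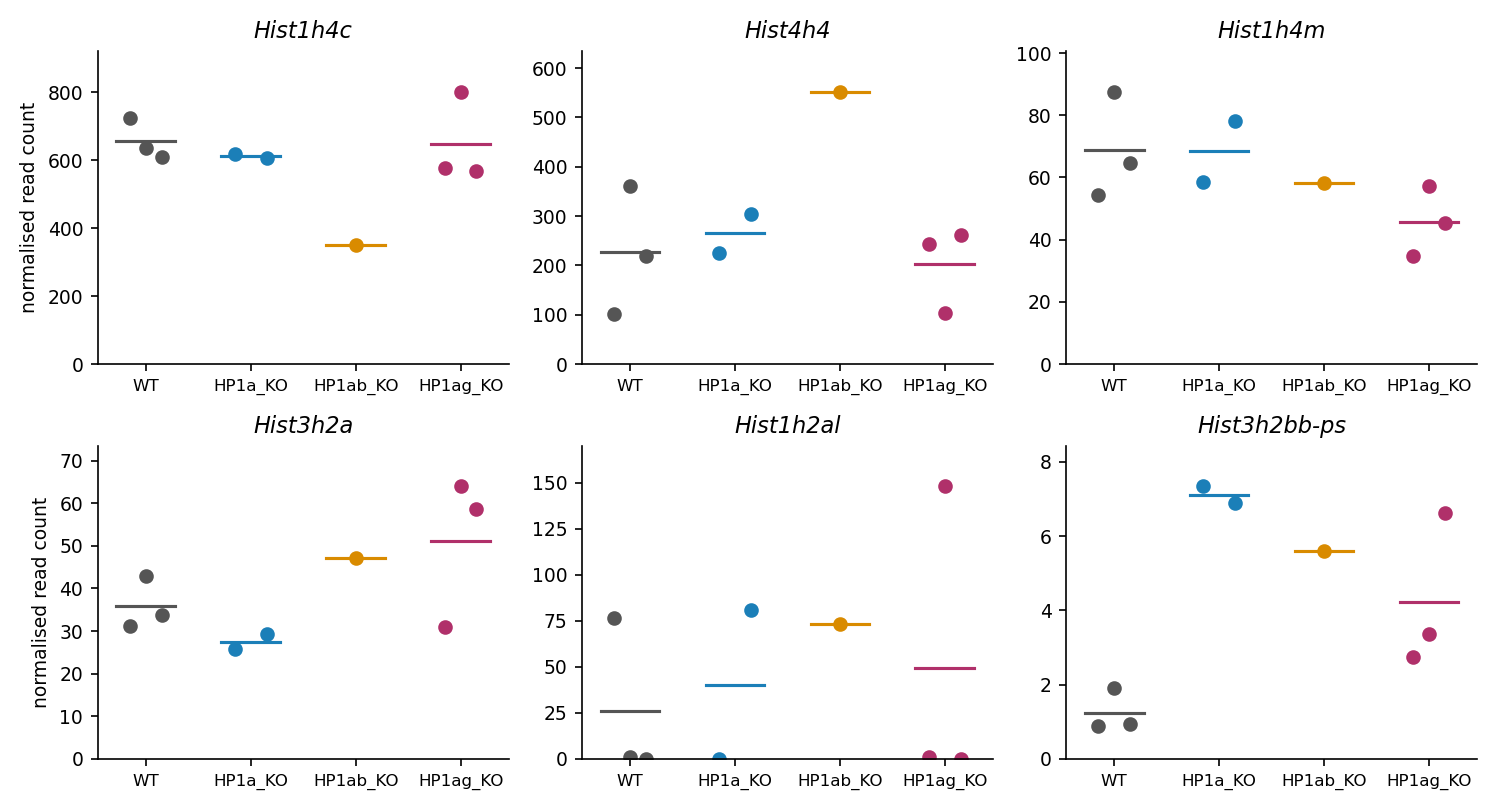
Normalised read counts (vertical axes, from 0) of 6 single histone genes by group; points are libraries and bars are group means. Hist1h4c is lowest (351) and Hist4h4 highest (552) in the single HP1ab_KO liver, Hist1h2al is at 73.5 to 148 in 4 livers and at most 0.95 in the other 5, and Hist3h2bb-ps is at 1 to 8 reads in every liver.

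The 9 members under the filter were Hist2h3c2, Hist1h2br, Hist3h2bb-ps, Hist3h2ba, Hist1h2ao, Hist2h2aa2, Hist1h1t, Hist1h2bq and Hist1h2ba. Hist1h1t and Hist1h2ba are known for expression in the testis, and in these livers they had 0 to 4 and 0 to 1 reads. Hist3h2bb-ps, a processed pseudogene, had 1 to 2 reads in each WT liver and 3 to 8 in each mutant liver, which is near the 3 reads that a count of 0 allows, so no difference is drawn from it. Copies that share sequence limit many of the values above: 32 of the 66 members share at least 50% of the 50-base stretches of their transcript with other genes, 9 share over 90%, and 4 (Hist1h1a, Hist1h1b, Hist2h2be and Hist1h1t) share none. The excess in WT replicate 2 was present on either side of that line, with the highest value there in 25 of 27 tested members that share at least 50% and in 23 of 30 that share less.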

How the data were processed

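The authors deposited 1 signal value per gene for every library, namely reads divided by that library's size factor, as the steps of the values show. Build mm10 and the tools HTSeq 0.5.4p3, DESeq2 1.0.19, Bowtie2 2.1.0, TopHat2 2.0.10 and CASAVA 1.8.2 are listed, with no role for each, per the submitters' processing notes. Which annotation was counted, and whether by strand, is not given in the sources used here. Overlapping, antisense and near-identical histone genes may share or lose reads. Per the labels' protocols the libraries were strand-specific, from total RNA depleted of ribosomal RNA.

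With a tolerance of 0.1 read, 100.0% of values were whole multiples of 1 read, which gave reads, size factors and totals. Groups came from the genotype labels. All 4 groups entered 1 limma 3.58.1 fit with a mean trend in R 4.3.3, on log2(value + 1), for genes with a mean of at least 10 (5 residual and 3.13 prior degrees of freedom), with Benjamini-Hochberg adjustment over all genes tested. Differences on this scale understate those of low genes. For HP1a-null livers the 3 mutant group means were averaged. The count tests on recovered reads were the quasi-likelihood test of edgeR 4.0.16, which called 0 genes in each comparison, and DESeq2 1.42.0, which called 11 to 457. The limma fit was also run on simulated data, and no statement above rests on that run. Members were matched to GENCODE M21 by identifier (59) or symbol (7). Python 3.11.15, numpy 2.4.6, pandas 2.3.3 and matplotlib 3.10.9 were used.

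The histone genes and gene lists were chosen with earlier results of these data known. Named with values were the 12 members with the highest mean, up to 5 members per direction and comparison by smallest unadjusted p, other members with a mean of at least 10, and up to 3 genes per list by smallest p. Mki67, Mcm5, Slbp, Npat, Chaf1b, H2afx, H2afz, H3f3a, H3f3b and Rpph1 were named beyond that rule, after their values were seen, to show their lists. A gene of the S phase list that met the rule is not reported here. Alternatives covered the pseudocount, the filter, scaling, the count tests, fits of only the groups compared, members that share sequence, and each library left out.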

Additional observations from a re-analysis of the deposited data

How the results depend on the processing

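The count of members called was 0 in all 5 comparisons under every alternative run, and no named member passed the threshold. The sign of the medians changed with the library left out in all 5 comparisons. With the count tests it changed only for HP1ag_KO minus WT and HP1a-null minus WT. Each shift of a median was under 0.58, the pooled SD of library medians within groups. That SD is of single libraries and was 0.87 in WT, which includes WT replicate 2, 0.24 in HP1a_KO and 0.44 in HP1ag_KO. It therefore does not show the shifts to be small. Leaving out 1 library at a time moved the median member log2 difference between -0.26 and 0.51 for HP1ag_KO minus WT, -0.12 and 0.69 for HP1a_KO minus WT, -0.01 and 0.81 for HP1ab_KO minus WT, -0.39 and 0.12 for HP1ag_KO minus HP1a_KO, and -0.14 and 0.64 for HP1a-null minus WT. Each highest value but that of HP1ag_KO minus HP1a_KO came without WT replicate 2. Without members that share most of their sequence with other genes, the summed level was 9268 in HP1a_KO, 10474 in HP1ab_KO and 9049 in HP1ag_KO, because fewer genes are summed. Leaving out libraries moved the summed level between 9645 and 13210 in WT, 10185 and 11462 in HP1a_KO, and 9809 and 11212 in HP1ag_KO. Over all genes limma called 54 in HP1ab_KO minus WT with no filter and up to 78 (HP1ag_KO minus HP1a_KO, without WT replicate 1) with a library left out, none of them members. No paired analysis was possible because the labels give animal numbers only, and replicate numbers in accession order pair no samples.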

Other observations

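Ranked over 11359 other genes with a mean of at least 50, the gene whose log2 level lay closest to the log2 summed level of histone genes with a stem-loop over the 9 livers was Il15ra, a subunit of the interleukin-15 receptor (r = 0.92). It was at 865, 1279 and 538 in WT, 771 and 964 in HP1a_KO, 1200 in HP1ab_KO, and 706, 760 and 1343 in HP1ag_KO. Gmnn, which encodes the replication licensing inhibitor geminin, came second (r = 0.90) at 174, 254 and 123 in WT. The next 8 were Engase, Slx4ip, Arrdc3, Chst13, Kansl3, Ppargc1b, Ndst2 and Pim1 (r = 0.88 to 0.90). Arrdc3 ran most widely, at 3685, 13119 and 1017 in WT. That sum is carried by Hist1h1c, Hist1h1e and the abundant H4 genes.

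Against the median of the 57 members, a measure added after the data were seen, the closest genes were others: Ehmt1, a histone H3 lysine 9 methyltransferase (r = 0.96), Arhgap11a (0.95), the cell cycle transcription factor Foxm1 (0.95) and Chaf1b (0.94). Foxm1 was at 26.7, 102 and 37.5 in WT, 44.0 and 80.0 in HP1a_KO, 72.7 in HP1ab_KO, and 55.6, 24.7 and 78.5 in HP1ag_KO. Ehmt1 moved little, from 989 to 1119. Each r is the highest of many and describes these 9 livers.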
